A study of Oryza sativa with 32 samples.

Results

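The C2H2 zinc finger loci of rice are the family to which *ART1* (*ALUMINUM RESISTANCE TRANSCRIPTION FACTOR 1*) belongs, and they are described here as the MSUv.7 annotation of the Nipponbare genome lists them. A locus was taken as a member when its representative gene model (the model chosen to stand for the locus) was described as a C2H2 zinc finger protein and was not marked as a transposable element (TE). This gave 176 loci with 233 gene models, of 55986 loci in all and 39049 loci not marked as TEs. The study grew rice roots of Azucena (*tropical japonica*, Al-resistant), IR64 (*indica*, Al-sensitive) and the reciprocal near-isogenic lines (NILs) AZU[IR6412.1] and IR64[AZU12.1], in which the *Alt12.1* region with *ART1* was exchanged between the parents. Seedlings had 5 days without Al and were then kept as controls or moved to a solution with 80 μM Al3+ activity for 4 hr, and 4 biological replicates of each of the 8 combinations gave 32 RNA-seq libraries. Each NIL carries a chromosome segment and not *ART1* alone, so the other genes of the segment were exchanged with it. The file analysed here is the gene annotation to which the reads were assigned. It holds 0 columns with values of a single library, so the values below are positions, lengths and marks of genes and not levels of RNA.

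In a C2H2 zinc finger, a pair of cysteines and a pair of histidines hold a zinc ion, and the folded finger reads a short stretch of DNA or, in some proteins, binds RNA or another protein. Plants use many such proteins as transcription factors in development and in responses to drought, salt and cold. ART1 is a constitutively expressed member that is required for the Al-induced expression of other Al resistance genes in rice roots, and its homolog in *Arabidopsis thaliana*, STOP1, acts at low pH and in Al stress. Membership by description says nothing of how similar a protein is to ART1. The label of the family as related to *ART1* therefore rests on the shared class of zinc finger only, and no protein sequence was compared.

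*ART1* (LOC_Os12g07280) carries the name ZOS12-02 in the annotation, a code of the species, the chromosome and a number along it. Its gene model runs from 3580032 to 3582974 on chromosome 12 (MSUv.7, plus strand). RefSeq, for a different assembly of the species, lists a gene on chromosome 12 with the synonyms *ART1* and *STAR3*; no other position or name was taken from that table. The gene model of *ART1* also holds the marker *indel_ART1*, an insertion or deletion with which the study followed the gene through backcrossing. Its primers are shown, each 5′ to 3′, because they mark the place where *ART1* itself was typed in the NILs.
Forward primer of *indel_ART1*: cgacgagctcttcaaggtatg
Reverse primer of *indel_ART1*: gcagcacctcgtacttctcc

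Among the 10 C2H2 loci of chromosome 12, *ART1* was the second from the start of the chromosome. The first, ZOS12-01 (LOC_Os12g05920), begins at 2724033, has 2317 bp and lies on the plus strand like *ART1*. The distance between them was 0.854 Mb and held 127 loci, 27 of them marked as TEs. On the other side, ZOS12-03 (LOC_Os12g13130) begins at 7306630, a distance of 3.72 Mb and 555 loci from *ART1*. *ART1* thus stood alone, with no other C2H2 locus within 5 loci, and was 1 of 140 such members among the 176. The distance to the nearest C2H2 locus was smaller than that of *ART1* for 114 of the 176 loci, and its median was 0.496 Mb.

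Both ZOS12-01 and *ART1* overlapped the introgressed segment of each NIL, and ZOS12-03 overlapped neither. The segment of AZU[IR6412.1] held 2 C2H2 loci among 424 loci not marked as TEs, and that of IR64[AZU12.1] held the same 2 among 313. These are 4.72 and 6.39 per 1000, beside 4.53 per 1000 on the 12 chromosomes together. In the fine-mapped region of *Alt12.1*, which holds 6 loci named by the study, *ART1* was the only one with this description. The ends of the segments were taken as the study prints them, in rounded Mb. ZOS12-01 was therefore exchanged together with *ART1* in both NILs by position, and whether its RNA differed between the lines was not analysed here.

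Further along chromosome 12, ZOS12-04 (LOC_Os12g18150) was one of the longest members with 10217 bp, and 10 of the 20 loci around it were marked as TEs. ZOS12-05 (LOC_Os12g31840) has 3535 bp and follows after 1169 loci without a member. The remaining 5 members, ZOS12-06 (LOC_Os12g38940) to ZOS12-10 (LOC_Os12g42250), all lie on the minus strand between 23944117 and 26211896. ZOS12-06 and ZOS12-07 (LOC_Os12g38960), with 2637 and 3831 bp, are separated by a single locus, LOC_Os12g38950. That locus is described as a zinc finger, C2H2 type family protein, has 3681 bp and is on the minus strand as well, but it has no ZOS number and its wording kept it outside the rule. ZOS12-08 (LOC_Os12g39220) with 1243 bp and ZOS12-09 (LOC_Os12g39400) with 1618 bp complete a group of 4 members within 45 loci. All 10 loci of the chromosome have 1 gene model except ZOS12-03, which has 4.

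The C2H2 loci were spread over all 12 chromosomes, with none on the sequences not assigned to a chromosome. Chromosome 3 held the most, 24, followed by chromosome 1 with 23, chromosome 9 with 21 and chromosome 2 with 19. Chromosome 4 held 14, chromosomes 7 and 8 held 13 each, chromosome 5 held 12, chromosome 6 held 11, chromosome 12 held 10, chromosome 11 held 9 and chromosome 10 held 7. Set against the number of loci not marked as TEs, chromosome 9 stood highest with 9.30 per 1000. The other chromosomes lay between 3.05 per 1000 on chromosome 10 and 5.47 per 1000 on chromosome 3, and the 12 chromosomes together had 4.53 per 1000. Chromosome 12, with 4.10 per 1000, lay near the middle of this range. Chromosome 9 also held the most members in runs, and with each run counted once its value was 7.08 per 1000, still the highest. These are complete counts of 1 annotation, with no replicates, and genes that arose by duplication are not independent of each other. No test was therefore run on these numbers, and the differences are given as descriptions.

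**Figure D1:**
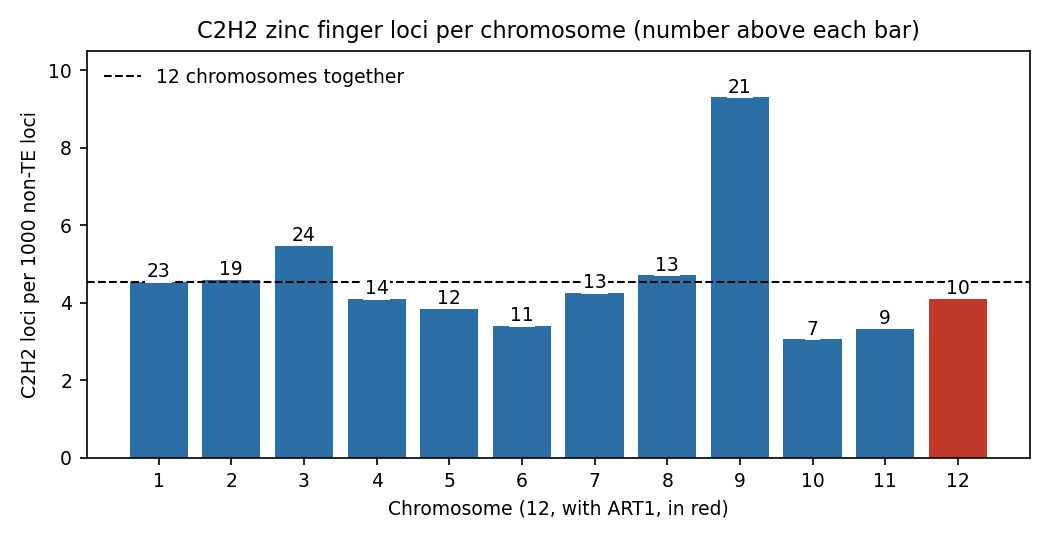
Bars show the number of C2H2 zinc finger loci per 1000 loci not marked as TEs on each rice chromosome, with the number of C2H2 loci above each bar. The dashed line is the value of the 12 chromosomes together, 4.53; chromosome 9 reaches 9.30, and chromosome 12, which carries *ART1*, reaches 4.10.

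Along the chromosomes, the members were most frequent towards the end with the higher positions. When the loci of each chromosome were divided by their order into 4 equal parts, the last 25% of loci held 78 of the 176 C2H2 loci (44.3%), against 29.6% of all loci not marked as TEs. The first part held 38 (21.6%, against 26.4% of all non-TE loci). The next held 23 (13.1%, against 19.1%) and the one after it 37 (21.0%, against 24.9%). *ART1* lies in the first part. The share in the last part was above that of all non-TE loci on 9 chromosomes and below it on chromosomes 2 and 5. On chromosome 9 it was nearly equal, 33.3% against 33.5%. On chromosome 7 it was 9 of 13 loci (69.2%, against 29.5% of non-TE loci). On chromosome 8 it was also 9 of 13 (69.2%, against 31.6%), and on chromosome 6 it was 7 of 11 (63.6%, against 28.8%). Counted without the members in runs, the share was 43.6%. This division was chosen after the positions had been seen.

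The longest stretch between members was on chromosome 4, where 2491 loci over 17.5 Mb separate ZOS4-05 (LOC_Os04g08600) from ZOS4-06 (LOC_Os04g36650). On chromosome 6, 1660 loci lie between ZOS6-04 (LOC_Os06g22420) and ZOS6-05 (LOC_Os06g40960), and on chromosome 1, 1595 loci lie between ZOS1-11 (LOC_Os01g40110) and ZOS1-12 (LOC_Os01g57650). Chromosome 8 has no member among its first 1553 loci. Over all 164 pairs of successive members, the median was 142 loci.

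**Figure D2:**
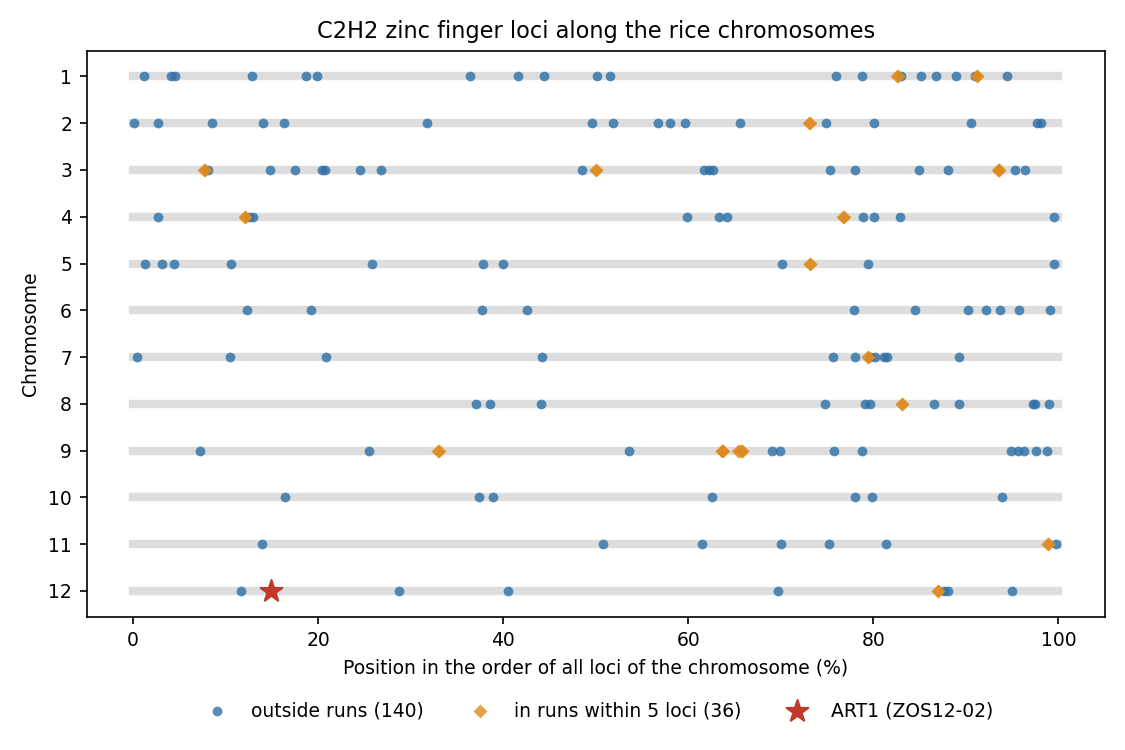
Each point is a C2H2 zinc finger locus, placed by its order among all loci of its chromosome in percent, with the start of each chromosome at the left. Diamonds are the 36 loci in runs, circles the 140 others, and the star is *ART1*; points crowd at the right on chromosomes 6, 7 and 8, and chromosome 4 has a stretch of 2491 loci without a member.

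The ZOS numbers followed position without exception. On each chromosome the numbers rose with the start of the gene model in all 164 pairs of neighbours, with 0 pairs out of order, 0 numbers repeated and 0 members whose number named another chromosome. Counted to the highest number on each chromosome there were 179 numbers, of which 176 belonged to members. The 3 others were ZOS8-03, ZOS11-06 and ZOS11-07. ZOS8-03 is LOC_Os08g19890, a locus of 8831 bp on the minus strand, and ZOS11-06 is LOC_Os11g38330, a locus of 6585 bp with 3 gene models on the plus strand. Both are described as C2H2 zinc finger proteins but are marked as TEs, which kept them outside the rule, and both lie in the place that their number gives them. ZOS11-07 was found on no locus of the list. Its neighbours in number, ZOS11-05 (LOC_Os11g36930) and ZOS11-08 (LOC_Os11g39630), have 255 loci between them.

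C2H2 loci were also found close to each other. A member was counted as part of a run when another member followed or preceded it within 5 loci, whatever the loci in between. By this count 36 of the 176 loci (20.5%) formed 17 runs on 10 chromosomes, and chromosomes 6 and 10 had none. As background, 14.6% of the 22901 non-TE loci with an informative description had a locus of the same description within 5 loci, a share that depends on how finely the descriptions are worded. That share is by description and the 20.5% by family, so the 2 are unlike measures. The 3 other families described below, counted in the same way as the C2H2 loci, had higher shares, from 25% to 57.1%. Of the runs, 15 were pairs and 2 held 3 loci, so that no run was larger than 3. Among the 19 pairs of successive members within runs, 14 were on the same strand, and all 11 pairs that followed each other directly were. For members further apart, 85 of 145 successive pairs shared a strand (58.6%). The share among directly adjacent non-TE loci of any kind is not given here, so these values have no background.

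On chromosome 9, ZOS9-06 (LOC_Os09g25420), ZOS9-07 (LOC_Os09g25430) and ZOS9-08 (LOC_Os09g25440) follow each other directly on the minus strand. Their lengths are 3002, 2039 and 2579 bp, and the gaps between them are 2621 bp at most. ZOS9-09 (LOC_Os09g26050) and ZOS9-10 (LOC_Os09g26100), on the plus strand, have 892 and 459 bp and are separated by 4 loci, 3 of which are marked as TEs. ZOS9-11 (LOC_Os09g26200) and ZOS9-12 (LOC_Os09g26210) are direct neighbours on the minus strand with 921 and 820 bp. These 7 members lie within 76 loci and 0.595 Mb, the most in any 100 successive loci of the annotation. The fourth run of the chromosome, ZOS9-03 (LOC_Os09g13630) and ZOS9-04 (LOC_Os09g13680), pairs a locus of 12602 bp with one of 1226 bp on the other strand, with 3 TE loci among the 4 between them.

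The other run of 3 was on chromosome 3. ZOS3-20 (LOC_Os03g60540), on the minus strand, has 561 bp and is separated by a locus described as a ThiF family protein from ZOS3-21 (LOC_Os03g60560) and ZOS3-22 (LOC_Os03g60570). The latter are direct neighbours on the plus strand and nearly equal in length, with 925 and 915 bp. On the same chromosome ZOS3-11 (LOC_Os03g32220) and ZOS3-12 (LOC_Os03g32230) are direct neighbours with 1119 and 1102 bp. ZOS3-01 (LOC_Os03g05480) and ZOS3-02 (LOC_Os03g05490), the closest pair of all with 1812 bp between them, differ more, with 2606 and 597 bp.

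Of the remaining direct neighbours, ZOS11-09 (LOC_Os11g47620) and ZOS11-10 (LOC_Os11g47630) have 780 and 846 bp and form the most compact run, 4495 bp from end to end. ZOS8-08 (LOC_Os08g37904) and ZOS8-09 (LOC_Os08g37920) have 8246 and 5633 bp. ZOS4-09 (LOC_Os04g46670) and ZOS4-10 (LOC_Os04g46680) have 2256 and 1388 bp. Unequal neighbours were ZOS4-02 (LOC_Os04g08034) with 15813 bp beside ZOS4-03 (LOC_Os04g08060) with 1241 bp, and ZOS7-07 (LOC_Os07g39960) with 3262 bp beside ZOS7-08 (LOC_Os07g39970) with 712 bp. In the pairs with loci in between, ZOS1-14 (LOC_Os01g62130) and ZOS1-15 (LOC_Os01g62190), ZOS1-21 (LOC_Os01g68104) and ZOS1-22 (LOC_Os01g68160), and ZOS5-09 (LOC_Os05g38600) and ZOS5-10 (LOC_Os05g38620) lie on opposite strands. ZOS2-13 (LOC_Os02g44120) and ZOS2-14 (LOC_Os02g44130) share the plus strand, with a retrotransposon locus between them.

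The length of a locus was measured from the first to the last position of its representative gene model, introns included. C2H2 loci ranged from 312 to 17658 bp, with a median of 2494 bp and quartiles of 1187 and 3797 bp. For all loci not marked as TEs on the 12 chromosomes the median was 2170 bp, with quartiles of 979 and 3909 bp. *ART1*, with 2943 bp, lay close to the middle of the family: 75 members were longer and 100 were shorter. The members nearest to it in length were ZOS5-12 (LOC_Os05g51830) with 2965 bp, ZOS3-03 (LOC_Os03g05690) with 2920 bp and ZOS1-21 with 2971 bp. The longest were ZOS1-22 with 17658 bp, ZOS4-02 with 15813 bp and ZOS9-03 with 12602 bp. The shortest was ZOS7-04 (LOC_Os07g23450) with 312 bp, followed by ZOS2-01 (LOC_Os02g01090) and ZOS5-04 (LOC_Os05g05970) with 384 bp each. In all, 38 members (21.6%) were shorter than 1000 bp, against a background of 25.5%.

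Members in runs were shorter than the others. Their median was 1233.5 bp, against 2848 bp for the 140 members outside runs. Of the 38 members under 1000 bp, 15 (39.5%) were in runs, compared with 21 of the 138 longer ones (15.2%). The runs nevertheless also held the 3 longest members, so that the lengths of both sets overlap over most of their range. The difference was not tested, since loci of a run are not independent.

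**Figure D3:**
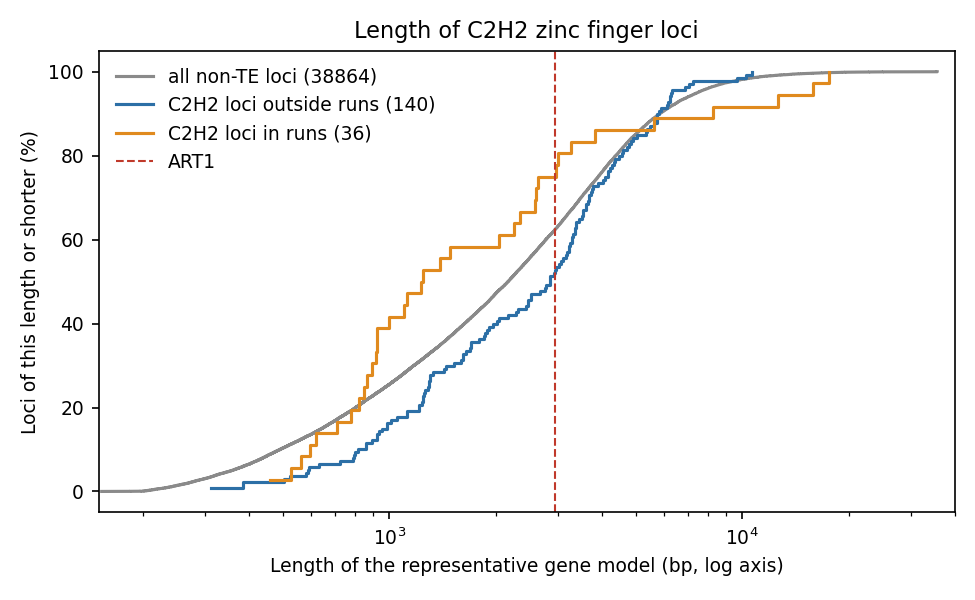
Each line gives the percentage of loci with the length on the x axis (bp, log axis) or shorter, for all non-TE loci on the 12 chromosomes, for the 140 C2H2 loci outside runs and for the 36 in runs; the dashed line is *ART1*. Between 1000 bp and *ART1* the line of loci in runs is the highest, with a median of 1233.5 bp against 2848 bp outside runs, and *ART1* has 2943 bp.

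Most C2H2 loci had a single gene model in the annotation. More than 1 was given for 23 loci (13.1%), against a background of 16%, and *ART1* is among the 153 loci with 1 model. ZOS4-11 (LOC_Os04g47860) had the most, 8, followed by ZOS4-02 and ZOS8-08 with 6 each and ZOS1-22 with 5. C2H2 loci with more than 1 model were longer, with a median of 5633 bp against 1970 bp, and none of them was shorter than 2786 bp. The same split of all non-TE loci is not given here, so this difference has no background. For 8 of the 23, the other models reached beyond the representative one, by 3580 bp at ZOS1-04 (LOC_Os01g09850) and by less elsewhere.

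All 176 C2H2 loci carried the mark of an expressed gene, as did 93.5% of all loci not marked as TEs. The mark belongs to the annotation and says that some transcript evidence was on file, in any tissue, and not that the gene was expressed in these roots. The word also ends the description of every member, so that the mark and the description are not separate measurements.

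*ART1* had a close neighbour of another kind on its downstream side. The next locus downstream, LOC_Os12g07290, begins 453 bp after its end. On that side, 15 of the 176 C2H2 loci had a shorter distance. The median distance downstream was 3537.5 bp for the family but 2329 bp for all non-TE loci. The share of all non-TE loci with a shorter distance than *ART1* is not given here. Upstream, 3034 bp separate it from LOC_Os12g07270, compared with a median of 3712 bp for the family and 3011 bp for all non-TE loci. Of the 20 loci around *ART1*, 10 on each side, 2 were marked as TEs. ZOS12-01 also had 2 of 20, whereas ZOS12-03 had 8. For the family the mean share of TEs among these neighbours was 20.3%, and for all non-TE loci it was 23.9%. ZOS5-07 (LOC_Os05g20930), with 17 of 20, and ZOS9-01 (LOC_Os09g03500), with 15 of 20, stood in the surroundings richest in TEs.

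*ART1* overlapped no other locus. Overlap by at least 1 position was found for 6 C2H2 loci (3.41%), against a background of 4.1%, and in 5 of them the other locus was on the opposite strand. These were ZOS2-06 (LOC_Os02g19180), ZOS2-16 (LOC_Os02g47920), ZOS6-07 (LOC_Os06g46910), ZOS8-05 (LOC_Os08g34310) and ZOS9-06, and the partner of ZOS6-07 is described as a dihydroflavonol-4-reductase. ZOS11-08 shares positions with a locus on its own strand, LOC_Os11g39580, and reads from the shared part cannot be assigned by strand.

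Other families were measured in the same way. WRKY transcription factors (96 loci) bind DNA through another kind of zinc-holding domain, proteins with C3HC4 zinc fingers (242 loci) are often ubiquitin ligases, and cytochrome P450 enzymes (350 loci) oxidize small molecules. A locus of the same family within 5 loci was found for 25.0% of WRKY loci, 29.3% of C3HC4 loci and 57.1% of P450 loci, beside 20.5% of C2H2 loci. More than 1 gene model was given for 21.9% of WRKY loci, 19.8% of C3HC4 loci and 8.57% of P450 loci, beside 13.1%. Loci under 1000 bp made up 3.13% of WRKY loci, 33.5% of C3HC4 loci and 4.86% of P450 loci, beside 21.6%. The median distance to the next locus upstream was 6475 bp for WRKY loci, 3367 bp for C3HC4 loci and 4027.5 bp for P450 loci, beside 3712 bp. None of these differences was tested.

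**Figure D4:**
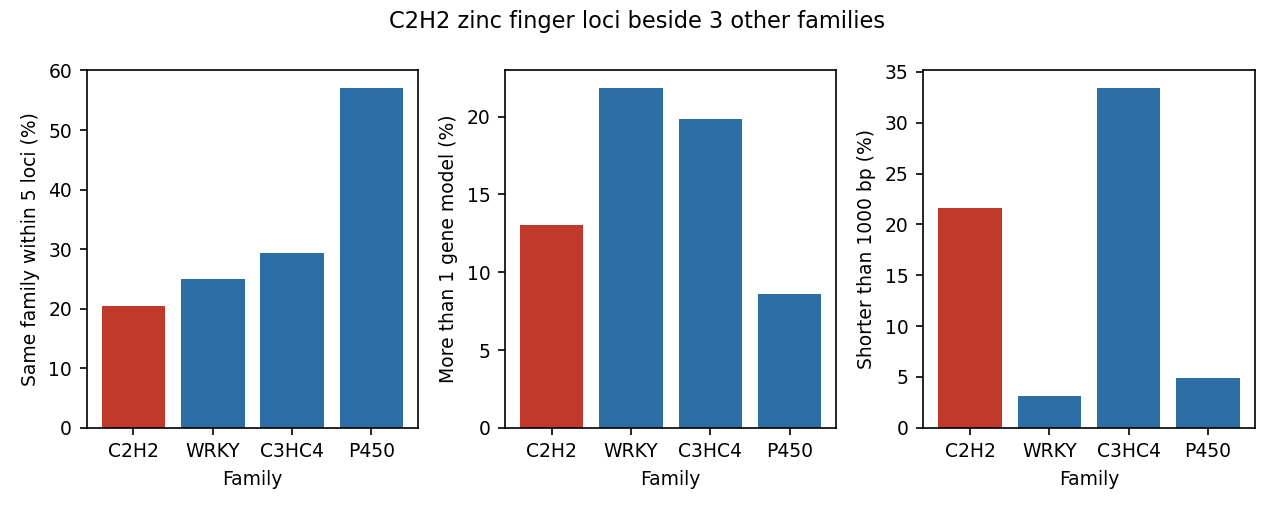
The 3 panels give, in percent of the loci of each family, those with another locus of the same family within 5 loci, those with more than 1 gene model, and those shorter than 1000 bp. C2H2 loci (red) have 20.5%, 13.1% and 21.6%, and the P450 loci have the highest share of neighbours, 57.1%.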

How the data were processed

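The libraries were made by the authors from total root RNA and sequenced as single-end, strand-specific reads. The authors removed adaptors and low-quality sequences with Trimmomatic and ribosomal RNA reads with Bowtie, and aligned the rest with HISAT to MSUv.7; versions are not given in the sources used here. The deposited file used here is the MSUv.7 list of 66338 gene models with their positions, strand, description and marks. It has 0 columns of values per library, so library depths and RNA levels were not analysed, and libraries entered no comparison.

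Loci were ordered by the start of the representative model, and a locus was counted as expressed when any of its models was. Runs were chained while the next member was at most 5 positions further along, with at most 4 loci in between. The code for the count was run on simulated lists with planted pairs of neighbours on a single chromosome. These lists held no run of 3, so they do not check longer runs. No hypothesis test was run. Genes were named by a rule: all members of chromosome 12, all runs of 3 and direct neighbours, numbers out of sequence, the 3 longest and shortest, and those with the most models. Members at the edges of stretches, pairs with loci in between, members overlapping other loci and members in TE-rich surroundings were chosen for naming once their values had been seen. Members and rules were chosen with earlier results of these data known. Segment ends and primers were read from the study's supplement. Counts were made in Python 3.11.15 with pandas 2.3.3 and numpy 2.4.6, intervals with scipy 1.17.1 and plots with matplotlib 3.10.9.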

Additional observations from a re-analysis of the deposited data

How the results depend on the processing

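Of 24 alternative values, 23 stayed within 1.5 times the main count or ratio, or within the 95% interval of the main share or median, which for a complete count serves only as a scale. Several could not differ, because all 176 members have a ZOS number, lie on the 12 chromosomes and carry the expressed mark. Limiting the loci to these therefore changed nothing. For the 0 pairs of ZOS numbers out of order, a ratio gives no scale. The share of C2H2 loci with another member nearby was 11.9% when only the adjacent locus was counted, which allows fewer neighbours by construction, against 20.5%; within 10 loci it was 22.2% and by starts within 50 kb 19.3%. The number of loci was between 176 and 178. Chromosome 9 had the highest density per 1000 non-TE loci, per 1000 of all loci, per Mb and with each run counted once, and the lowest was on chromosome 10, or on chromosome 11 with runs counted once. The counting of runs once and the 3 alternatives for the last 25% of loci (43.6% to 46.6% of members, against 44.3%) were chosen after seeing the data. No paired analysis was possible because no value of a single library was analysed. The list gives no exons or coding ends, so it cannot show how many fingers a protein has, and loci described only as zinc finger proteins may hold C2H2 fingers too.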

Other observations

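Short C2H2 loci often had a length that is a multiple of 3. Of the 38 members under 1000 bp this held for 26 (68.4%), and of the 138 longer ones for 52 (37.7%). All loci not marked as TEs had nearly the same values, 60.4% under 1000 bp and 35.1% above. The members under 1000 bp all have 1 gene model and include ZOS2-01 and ZOS5-04 with 384 bp each and ZOS7-04 with 312 bp.

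Zinc finger loci of other descriptions lay within 5 loci of 23 C2H2 loci (13.1%), against a background of 10.8% of all loci not marked as TEs on the 12 chromosomes. For ZOS12-06 and ZOS12-07 the locus nearby was LOC_Os12g38950, which is itself described as C2H2 type, and without it the count was 21 (11.9%, background 10.8%). The share of C2H2 loci was thus close to the background. ZOS1-10 (LOC_Os01g39110) has one on each side, LOC_Os01g39100 of the C-x8-C-x5-C-x3-H type and LOC_Os01g39120, a RING zinc finger ankyrin protein. Of 770 non-TE loci whose description names a zinc finger, the C2H2 loci make up 22.9%, and 76 carry only the general words zinc finger protein or zinc finger family protein. How many of these hold C2H2 fingers was not analysed here.

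A second crowded stretch was on chromosome 7, where ZOS7-07 to ZOS7-12 (LOC_Os07g40950) place 6 members within 94 loci and 0.540 Mb, although only ZOS7-07 and ZOS7-08 meet the rule for a run. The first member of chromosome 11, ZOS11-01 (LOC_Os11g06840), lies on the plus strand from 3357266 with 2468 bp and 1 gene model. On the plus strand of chromosome 12, *ART1* begins at 3580032 with 2943 bp and ZOS12-01 at 2724033 with 2317 bp. No sequence was compared, so whether ZOS11-01 corresponds to either of them was not tested.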
